A study of Mus musculus with 8 samples.

Results

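Genes of mitochondrial proteins linked to life in low oxygen were followed across cultured mouse fibroblasts: Higd1a, Fam162a, Mgarp, Ndufa4l2, Ndufa4, Cox4i1, Cox4i2 and Lonp1. They were chosen by name, with earlier results of these data known. Of the 8, 7 are described, out of 17091 features measured, and Cox4i2 was not analysed here. Higd1a, Fam162a, Mgarp and Ndufa4l2 were higher in all 4 libraries from low oxygen than in all 4 libraries from high oxygen. The same held for 2.06% of tested features. Mgarp and Ndufa4l2 were high enough to be tested only through their libraries from low oxygen. The other 3, Ndufa4, Cox4i1 and Lonp1, overlapped between the oxygen levels.

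The cells were fibroblasts from mouse skin, immortalised so that they grow without limit in a dish. They came from C57BL/6 mice that were wild type (WT) or mir210lox/lox, and libraries of the latter bear the name KO. Sites called lox flank a stretch that Cre can remove, but no Cre is named in the labels, so KO stands here for the group only. WT and KO cells spent 24 hours in 21% oxygen (normoxia) or in 1% oxygen (hypoxia). That gives 4 groups of 2 libraries, 8 in all. Neither clones nor separate cultures are named, and the p-values may therefore reflect technical spread alone.

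Cells short of oxygen keep their mitochondria but change how the respiratory chain works. HIF, a transcription factor that is destroyed while oxygen is plentiful, binds short DNA elements beside its target genes and switches them on. Some of its targets encode small mitochondrial membrane proteins that alter assembly of the chain or hold back electron flow. Others are alternative versions of a subunit already present, or proteases that remove the older version. miR-210 is a microRNA whose gene HIF switches on, and it is known to repress mitochondrial genes. Ndufa4 is among its reported targets.

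Values are the authors' normalised read counts, whole numbers with a lowest value of 1. Totals ran from 7.93 M to 8.68 M per library. The spacing of the low values gave a worth of 0.660 to 1.385 per read, hence an estimated 6.26 M to 12.01 M reads per library. The targeted gene, Mir210, had a value of 1 in each of the 8 libraries, which cannot check the labels. Libraries of a group correlated across genes at a Pearson r of 0.954 to 0.985 on the log2 scale, and libraries of different groups at 0.946 to 0.988. The level changed with transcript length differently in each library. Per doubling of length the log2 change was -0.09 and -0.14 in the WT hypoxia libraries 1 and 2, and 0.03 and 0.09 in WT normoxia. In KO normoxia it was -0.16 and 0.16, and in KO hypoxia -0.02 and 0.13. Short transcripts were thus high in WT hypoxia library 2 and KO normoxia library 1. Among the 7 genes Ndufa4 (624 bases), Cox4i1 (765), Fam162a (771) and Ndufa4l2 (934) have short transcripts, while Mgarp has 1499, Lonp1 2951 and Higd1a 3030 bases of annotated exon.

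HIF response elements share a core of 5 bases, ACGTG or GCGTG. RefSeq promoters (build GRCm38.p6, from 250 bases before to 50 bases from the annotated start site on) were at hand for Higd1a, Fam162a, Mgarp, Ndufa4 and Lonp1. Below are those of the 3 genes that rose in WT hypoxia and that of Lonp1, which did not, on the strand of the gene. Capitals mark each match on either strand; CACGT and CACGC are the cores read from the opposite strand.
Higd1a, chr9:121857747-121858046, minus strand: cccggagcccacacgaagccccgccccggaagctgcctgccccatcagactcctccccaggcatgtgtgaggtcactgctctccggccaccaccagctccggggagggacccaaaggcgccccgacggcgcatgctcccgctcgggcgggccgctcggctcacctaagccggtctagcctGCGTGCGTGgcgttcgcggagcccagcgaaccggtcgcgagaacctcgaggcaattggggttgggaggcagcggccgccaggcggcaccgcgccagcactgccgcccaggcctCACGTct
Fam162a, chr16:36071512-36071811, minus strand: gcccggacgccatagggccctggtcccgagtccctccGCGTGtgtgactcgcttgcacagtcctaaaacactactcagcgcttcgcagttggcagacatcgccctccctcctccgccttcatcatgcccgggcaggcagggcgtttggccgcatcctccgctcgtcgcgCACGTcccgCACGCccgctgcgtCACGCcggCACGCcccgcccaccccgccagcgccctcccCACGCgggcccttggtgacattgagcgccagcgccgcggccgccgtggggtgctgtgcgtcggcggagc
Mgarp, chr3:51396498-51396797, minus strand: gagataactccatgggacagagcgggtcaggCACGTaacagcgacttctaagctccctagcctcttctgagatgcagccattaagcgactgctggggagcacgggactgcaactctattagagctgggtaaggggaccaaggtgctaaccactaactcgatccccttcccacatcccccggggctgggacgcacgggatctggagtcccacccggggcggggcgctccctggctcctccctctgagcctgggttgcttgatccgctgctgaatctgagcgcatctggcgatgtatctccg
Lonp1, chr17:56626854-56627153, minus strand: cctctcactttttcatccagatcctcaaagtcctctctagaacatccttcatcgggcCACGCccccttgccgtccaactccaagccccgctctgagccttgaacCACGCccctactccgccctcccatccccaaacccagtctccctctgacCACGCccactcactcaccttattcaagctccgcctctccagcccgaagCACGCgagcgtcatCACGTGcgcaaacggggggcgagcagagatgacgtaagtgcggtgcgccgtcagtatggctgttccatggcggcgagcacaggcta

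The Higd1a promoter held 3 matches. A pair of GCGTG matches, which share 1 base, began 70 and 66 bases before the start site, and an ACGTG match on the opposite strand lay at base 44 after it. Fam162a held 6, of which 5 lay between 81 and 19 bases before the start site, all on the opposite strand. Mgarp held 1, which began 219 bases before the start. Lonp1 also held 6, including an ACGTG match on each strand that overlap each other, 36 and 35 bases before the start. In Ndufa4 1 GCGTG match lay at base 36 after the start. Among all 32851 promoters of 300 bases, 43.8% held either core (19.6% ACGTG, 32.4% GCGTG), and 8.9% held at least 3 matches. The number of matches did not separate the genes that rose from Lonp1. A match is a run of letters and does not show binding.

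**Figure D1:**
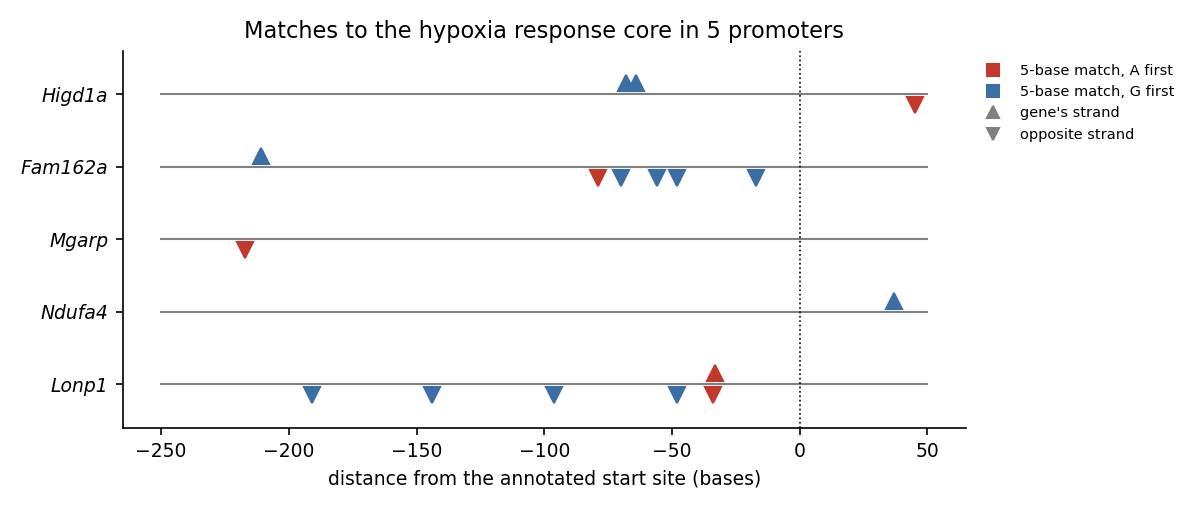
Positions of the core matches in the 5 promoters, in bases from the annotated start site (dotted line). Upward triangles lie on the strand of the gene and downward ones on the opposite strand, red for ACGTG and blue for GCGTG; Fam162a and Lonp1 have 6 each, Higd1a 3, and Mgarp and Ndufa4 1 each.

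Higd1a encodes a small protein of the inner mitochondrial membrane that joins respiratory complexes and is known as a hypoxia-induced gene. It stood at 165 and 156 in WT normoxia (libraries 1 and 2) and at 451 and 799 in WT hypoxia. In KO cells it stood at 162 and 144 in normoxia and at 399 and 454 in hypoxia. All 4 hypoxia libraries lay above all 4 normoxia libraries, and WT and KO overlapped at each oxygen level. In WT it rose by 1.90 on the log2 scale (SE 0.28, 3.72-fold, limma adjusted p = 0.0432). The change in KO was 1.47 (SE 0.28, limma adjusted p = 0.217), which did not pass the test.

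Fam162a, a HIF-responsive gene whose mitochondrial protein has been linked to cell death in hypoxia, was the most abundant of the 4. Its values were 1361 and 1060 in WT normoxia and 5635 and 14016 in WT hypoxia. They were 1466 and 1137 in KO normoxia and 4811 and 4356 in KO hypoxia. The oxygen levels did not overlap, and WT hypoxia library 2 was far above the other 3 hypoxia libraries. The rise in WT was 2.89 (SE 0.38, 7.39-fold, limma adjusted p = 0.0223). It was 2.23 without WT hypoxia library 2, where it did not pass (limma adjusted p = 0.0988), and 3.54 without WT hypoxia library 1 (limma adjusted p = 0.00875). In KO the change was 1.83 (SE 0.38, limma adjusted p = 0.258). After removal of each library's length trend the WT change was 2.54, which passed (limma adjusted p = 0.0119).

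Mgarp, a mitochondrial protein that takes part in mitochondrial transport along microtubules and is known from steroid-producing cells, was near the lowest value in normoxia. It stood at 2 and 1 in WT normoxia and at 32 and 85 in WT hypoxia. KO cells had 4 and 2 in normoxia and 32 and 29 in hypoxia. Mgarp was thus seen at 10 or more only in hypoxia. In WT its log2 change was 4.44 (SE 0.61, limma adjusted p = 0.0272), and in KO it was 3.02 (SE 0.61, limma adjusted p = 0.224). These fitted changes depend on the pseudocount: the WT value was 5.10 with 0.1 and 3.15 with 5 in place of 1. The lowest value, 1, may stand for no read at all, so the WT normoxia values hold an estimated 2 to 4 reads, against 110 in hypoxia. The ratio was 30.9 at the most reads (95% interval 11.7 to 115) and 61.7 at the fewest (16.7 to 516), counting error only. For KO it was 11.3 (4.92 to 32), from 6 against 62 estimated reads.

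**Figure D2:**
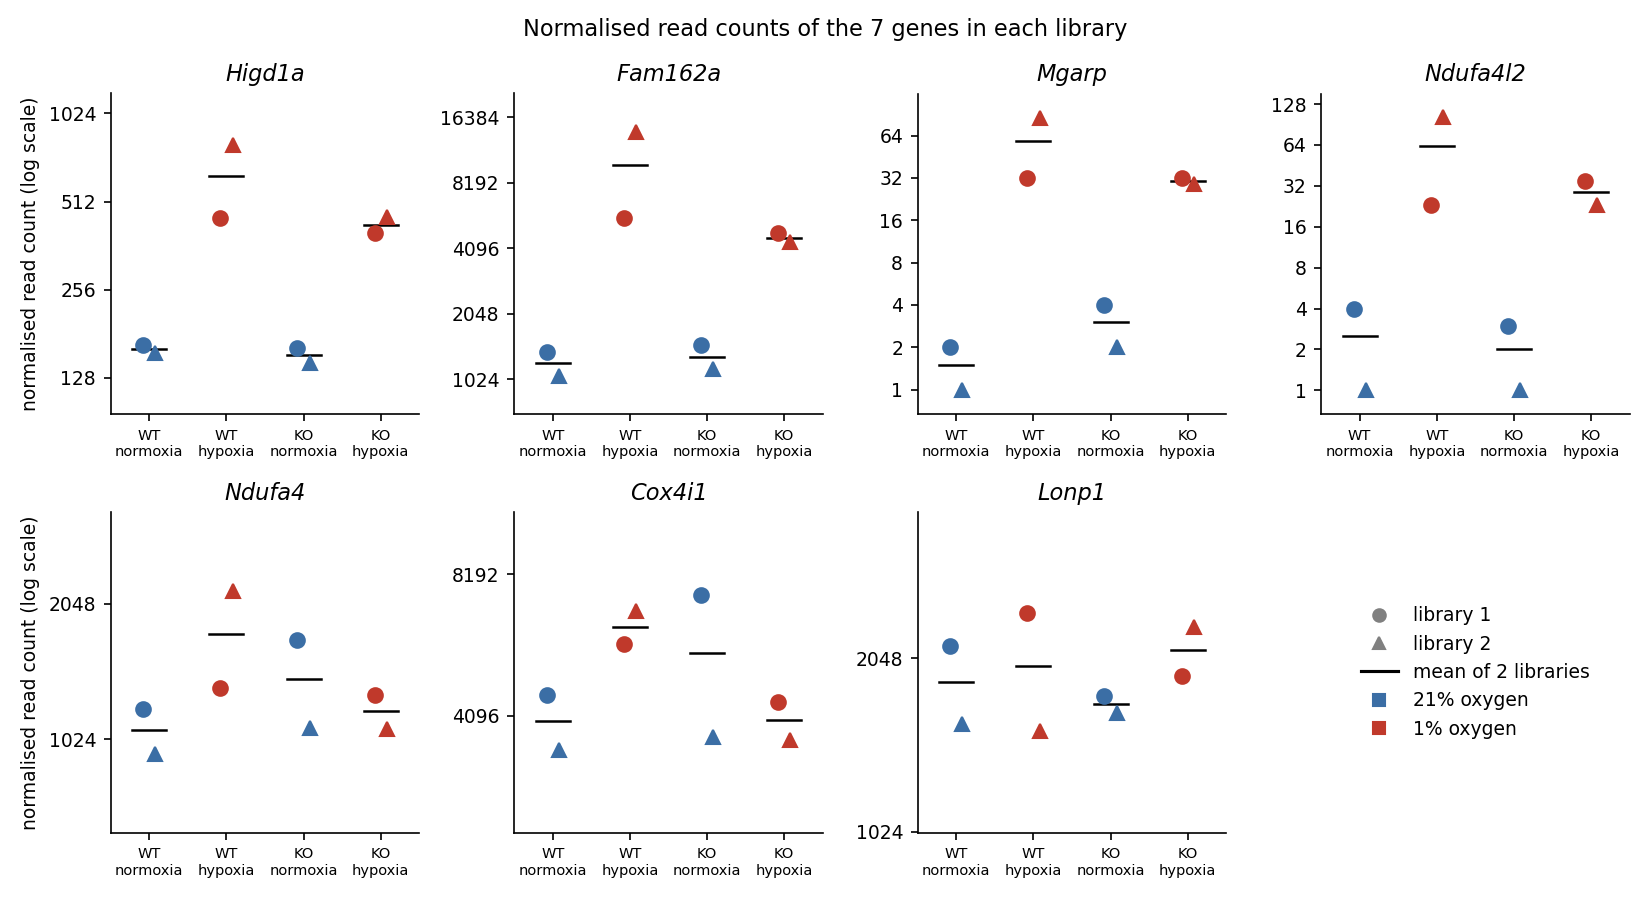
Normalised read count of each of the 7 genes in each library on a log2 axis, circles for library 1 and triangles for library 2, with black bars at the mean of 2 libraries. Red hypoxia points lie above all blue normoxia points for Higd1a, Fam162a, Mgarp and Ndufa4l2, and overlap them for Ndufa4, Cox4i1 and Lonp1.

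Ndufa4 and Ndufa4l2 are related proteins. Ndufa4 was first assigned to complex I and is now counted as a subunit of complex IV, the cytochrome c oxidase, while Ndufa4l2 is a HIF target that is known to restrain complex I. Ndufa4l2 stood at 4 and 1 in WT normoxia and at 23 and 102 in WT hypoxia. In KO it stood at 3 and 1 in normoxia and at 35 and 23 in hypoxia. Hypoxia and normoxia did not overlap, and WT hypoxia library 2 was the highest by far. Its log2 change was 3.97 in WT (SE 0.78, limma adjusted p = 0.21) and 3.38 in KO (SE 0.78, limma adjusted p = 0.396), so it passed in neither genotype alone. Library 2 of each normoxia group was at the lowest value. In WT an estimated 5 to 6 normoxia reads stood against 118, a ratio of 22.1 at the most reads (95% interval 9.84 to 61.3) and 26.5 at the fewest (11 to 83.1), counting error only. In KO 2 to 4 reads stood against 56, a ratio of 15.3 (5.67 to 58.2) or 30.7 (8.1 to 260). Like Mgarp, it reached 10 in hypoxia only.

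Ndufa4 itself stood at 1196 and 951 in WT normoxia and 1332 and 2183 in WT hypoxia. In KO normoxia it was at 1702 and 1082, and in KO hypoxia at 1283 and 1079. WT hypoxia lay above WT normoxia, while the KO oxygen levels overlapped. The log2 change was 0.68 in WT (95% confidence interval 0.00 to 1.35, limma adjusted p = 0.784) and -0.21 in KO (-0.88 to 0.47, limma adjusted p = 0.931). Without KO normoxia library 1, where short transcripts were high, the KO value turned to 0.12. With the length trend removed the changes were 0.27 in WT and -0.07 in KO.

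The balance of the 2 genes was then taken within each library, which cancels the scale of the library. Per 1000 Ndufa4, both counted per kilobase of exon, there were 2.23 and 0.703 Ndufa4l2 in WT normoxia and 11.5 and 31.2 in WT hypoxia. KO cells had 1.18 and 0.617 in normoxia and 18.2 and 14.2 in hypoxia. The values 0.703 and 0.617 rest on the lowest value of the table, so they are upper limits apart from rounding. Ndufa4l2 remained a small fraction of Ndufa4 in each library, and the ratio was higher in 4 of 4 hypoxia libraries than in any normoxia library. The log2 ratios, with 1 added to each count, were -5.80, -4.41, -5.16 and -5.49 in hypoxia and -7.90, -8.89, -8.73 and -9.08 in normoxia. Their means differed by 3.44 (exact two-sided permutation test, p = 0.0286, the smallest that 70 assignments allow). The size depends on the lowest values, being 4.00 with 0.1 added and 2.35 with 5, while the p rests on the order of the libraries. With assignments kept within genotype the exact permutation p was 0.0556, again the smallest that can be had.

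**Figure D3:**
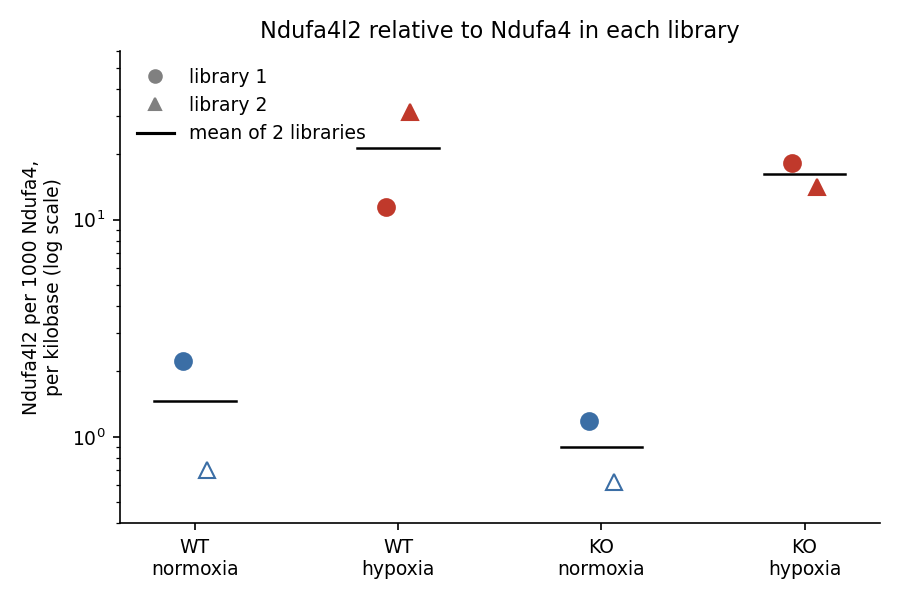
Ndufa4l2 per 1000 Ndufa4 in each library, both per kilobase of exon, on a log axis; circles are library 1, triangles library 2 and bars the mean of 2 libraries, and open symbols mark upper limits, where Ndufa4l2 was at the lowest value. Normoxia libraries lie between 0.617 and 2.23 and hypoxia libraries between 11.5 and 31.2.

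Cox4i1 is the widely expressed form of a nuclear-encoded subunit of complex IV; Cox4i2 is its alternative form, known from lung and from hypoxic cells. Cox4i1 stood at 4524 and 3458 in WT normoxia and 5810 and 6835 in WT hypoxia. In KO it stood at 7415 and 3696 in normoxia and at 4386 and 3641 in hypoxia. The highest value of all 8 was thus that of KO normoxia library 1, and the KO oxygen levels overlapped. The log2 change was 0.67 in WT (95% confidence interval -0.06 to 1.41, limma adjusted p = 0.8) and -0.39 in KO (-1.12 to 0.34, limma adjusted p = 0.916). The KO value turned to 0.11 without KO normoxia library 1. With the length trend removed the changes were 0.32 and -0.27.

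Lonp1, the ATP-dependent protease of the mitochondrial matrix, is known to degrade the Cox4i1 protein and to respond to HIF in some cells. Its values were 2147 and 1575 in WT normoxia, 2449 and 1529 in WT hypoxia, 1764 and 1646 in KO normoxia and 1911 and 2323 in KO hypoxia. The WT groups overlapped, and KO hypoxia lay above KO normoxia, as it did for 5 of the 7 genes and 15.9% of features. In WT 6 of the 7, without Lonp1, lay above in hypoxia, against 18.9% of features. Both counts include Mgarp and Ndufa4l2, which passed the filter on low values only through their hypoxia libraries. The Lonp1 changes were 0.07 in WT (95% confidence interval -0.54 to 0.69, limma adjusted p = 0.98) and 0.31 in KO (-0.31 to 0.92, limma adjusted p = 0.917). The WT value turned to -0.15 without WT normoxia library 2 and to -0.27 without WT hypoxia library 1. The Lonp1 promoter printed above, with 6 core matches, therefore stood beside a transcript whose change passed in neither genotype.

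Over all genes, 3 of the 7 (Higd1a, Fam162a and Mgarp) passed limma upward in WT, where 0.107% of the 12107 tested features did. Mgarp and Ndufa4l2 passed the filter on low values only through their hypoxia libraries, so their place in the counts of this paragraph carries that choice. All 7 were also chosen with earlier results of these data known, so the counts are not independent of that choice. In KO 0 of the 7 passed by limma, against 0.0578% of features, although 4 had an unadjusted p under 0.05, as had 3.2% of features. In WT 4 of the 7 had such a p, against 6.33% of features. The WT count fell to 0 without WT normoxia library 1, WT normoxia library 2 or WT hypoxia library 2, and to 1 (Fam162a) without either KO hypoxia library or without WT hypoxia library 2 and KO normoxia library 1 together. Without KO normoxia library 2, where calls over all features rose as well, the KO change of Higd1a was 1.39. Of the alternatives run for WT, Higd1a passed in 6 of 18, Fam162a in 12 of 18 and Mgarp in 8 of 17.

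Over both genotypes, the hypoxia change of 4 of the 7 passed upward, against 0.363% of features, and the same 4 had an unadjusted p under 0.05, against 5.29%. Mgarp changed by 3.73 (SE 0.43, limma adjusted p = 0.00453) and Ndufa4l2 by 3.68 (SE 0.55, limma adjusted p = 0.0217). Fam162a rose by 2.36 (SE 0.27, 5.12-fold, limma adjusted p = 0.00446) and Higd1a by 1.68 (SE 0.20, 3.22-fold, limma adjusted p = 0.00544). Higher values in 4 of 4 hypoxia libraries, without overlap, were found for these 4 genes and for 2.06% of features. For 0 of the 7, and for 1.65% of features, the 4 hypoxia libraries lay below. Mgarp and Ndufa4l2 passed the filter on low values only through their hypoxia libraries, so their place in these counts carries that choice. The choice of the 7 with earlier results of these data known bears on these counts too. Ndufa4 (0.24, 95% confidence interval -0.24 to 0.72), Cox4i1 (0.14, -0.38 to 0.66) and Lonp1 (0.19, -0.25 to 0.63) did not pass (limma adjusted p = 0.922, 0.946 and 0.925). Without WT hypoxia library 2 the count was 2: Higd1a changed by 1.48 (limma adjusted p = 0.029) and Fam162a by 2.03 (limma adjusted p = 0.00665), while Mgarp (3.39, limma adjusted p = 0.0525) and Ndufa4l2 (3.15, limma adjusted p = 0.139) were lost. Ndufa4l2 was lost as well without WT normoxia library 2, either KO normoxia library or KO hypoxia library 1.

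**Figure D4:**
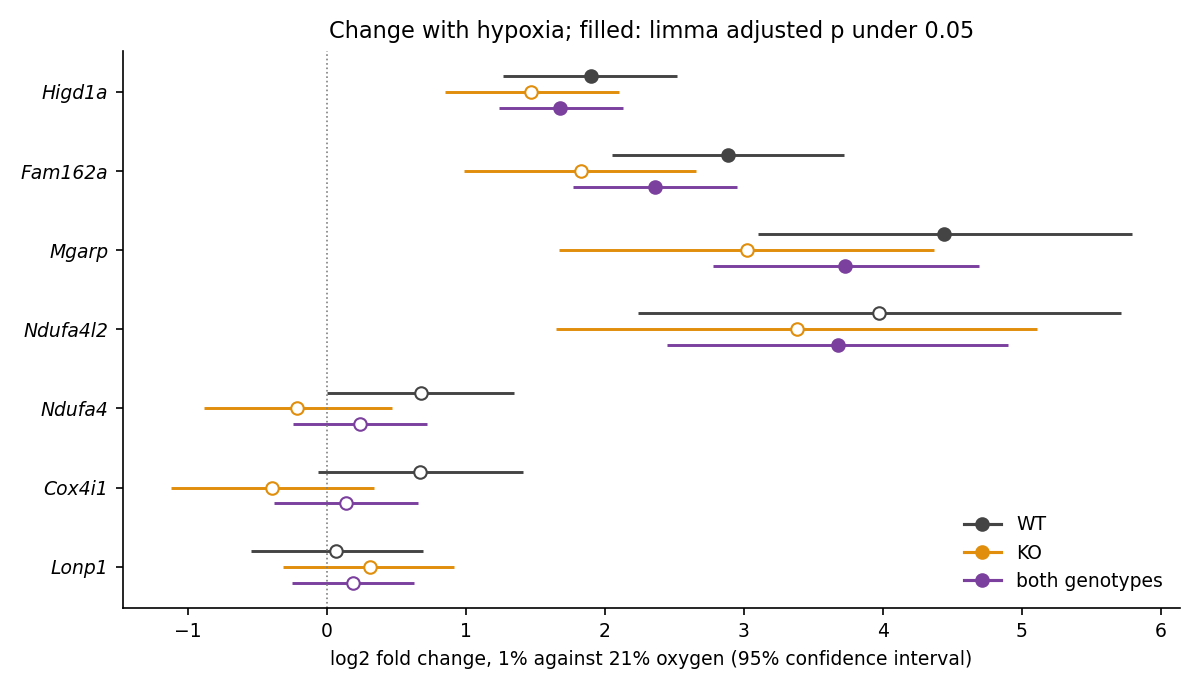
Log2 fold change with hypoxia for each gene in WT, in KO and over both genotypes, with 95% confidence intervals; filled points have a limma adjusted p under 0.05. Intervals of Higd1a, Fam162a, Mgarp and Ndufa4l2 lie above 0 in all 3 comparisons, with 7 of these 12 points filled, and those of Cox4i1 and Lonp1 span 0.

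KO and WT were compared at each oxygen level to ask what the cells named KO change. In normoxia 0 of the 7 passed by limma, and 0 had an unadjusted p under 0.05 (3% of features). Values ran from -0.16 for Ndufa4l2 (SE 0.78) to 0.66 for Mgarp (SE 0.61), both near the lowest value. Ndufa4 differed by 0.35 (95% confidence interval -0.33 to 1.03, limma adjusted p = 1). In hypoxia 1 of the 7 had a higher value in KO than in WT, against 49% of features, with 0 passing by limma and 1, Fam162a, at an unadjusted p under 0.05 (7.52% of features). For Fam162a the difference was -0.96 (95% confidence interval -1.79 to -0.12, limma adjusted p = 0.641). It was -0.30 without WT hypoxia library 2, -1.61 without WT hypoxia library 1 and -0.62 with the length trend removed. Ndufa4 was at -0.53 (-1.21 to 0.14, limma adjusted p = 0.655) and Cox4i1 at -0.66 (-1.39 to 0.08, limma adjusted p = 0.642). With the length trend removed these were -0.14 and -0.31. Without WT hypoxia library 2 Ndufa4 was at -0.18, Higd1a at -0.08, Mgarp at -0.07 and Ndufa4l2 at 0.29, and without WT hypoxia library 1 they were at -0.89, -0.91, -1.45 and -1.81. Fam162a, Ndufa4 and Cox4i1 did not overlap between WT and KO hypoxia, and 24.5% of features likewise had WT above KO. The summed smooth muscle markers, mostly Acta2 and Tagln, were also lower in KO than in WT, and their part was not tested. Smtn went the other way in hypoxia, at 752 and 692 in KO against 629 and 477 in WT, and Myh11 overlapped there. Of all features 0% passed in either comparison.

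The difference of the responses, KO minus WT, was then tested. By limma 0 of the 7 passed, as did 0% of features, and 1, Cox4i1, had an unadjusted p under 0.05, against 3.14% of features. Cox4i1 stood at -1.06 (95% confidence interval -2.10 to -0.02, limma adjusted p = 0.857) and Ndufa4 at -0.88 (-1.84 to 0.08, limma adjusted p = 0.857). Without KO normoxia library 1 both were at -0.56, and without KO normoxia library 2 they were at -1.56 and -1.21. With the length trend removed they were at -0.59 and -0.34, and without WT hypoxia library 2 and KO normoxia library 1 together at -0.44 and -0.20. Without WT hypoxia library 2 alone Ndufa4 was at -0.53. Mgarp was at -1.42 (-3.33 to 0.49) and Higd1a at -0.42 (-1.31 to 0.46), both at limma adjusted p = 0.857, and without WT hypoxia library 2 they were at -0.73 and -0.01. The interval for Ndufa4l2, from -3.04 to 1.85 around -0.60, is wide and does not show that the responses were alike.

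Compared per kilobase of exon, the group means ordered the genes alike in normoxia in both genotypes. Cox4i1 was highest (5217 in WT and 7262 in KO), followed by Ndufa4 (1720 and 2231) and Fam162a (1570 and 1688), whose ranges overlapped, then Lonp1 (631 and 578) and Higd1a (53 and 50.5). Ndufa4l2 (2.68 and 2.14) and Mgarp (1 and 2) were lowest, in part at the lowest value of the table, and their ranges overlapped. In hypoxia Fam162a rose in this order to 12744 in WT, beside Cox4i1 at 8265, with overlapping ranges. In KO hypoxia Fam162a (5945) and Cox4i1 (5246) likewise overlapped. Ndufa4l2 reached 66.9 in WT and 31 in KO, and Mgarp 39 and 20.3.

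The genes around these 7 were read from lists of related mitochondrial genes. With both genotypes together, 6 other HIF-responsive genes of mitochondrial proteins had a median log2 change of 1.75, beside 0.00 over all features. This list was picked as responsive to HIF and with earlier results of these data known, so its calls are not independent of that choice. Of the 6 genes, 4 passed upward, against 0.363% of features. They were Bnip3 (3.16 ± 0.18 SE) and Bnip3l (1.21 ± 0.16), both mitophagy receptors, Pdk1 (3.17 ± 0.23), which holds back pyruvate dehydrogenase, and Ak4 (2.29 ± 0.18), a mitochondrial adenylate kinase. Their limma adjusted p ran from 2.9e-05 to 0.0122. Fundc1, another mitophagy receptor, was at 0.44 ± 0.19. Among 9 HIF subunits and hydroxylases 2 passed, against 0.363% of features. These were the oxygen-sensing hydroxylases Egln3 (4.10 ± 0.21) and Egln1 (0.99 ± 0.15).

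No such change was called in the machinery of complex IV. Of 10 other nuclear-encoded subunits 0 passed by limma in either genotype. Over all features 0.107% passed in WT and 0.0578% in KO, so 0 calls cannot set so short a list apart. In WT 9 of the 10 had a positive value, against 47.8% of features, with a median of 0.26 (Cox7b 0.92 ± 0.32 SE, Cox6a2 -1.56 ± 0.80 near the lowest values). In KO 3 of 10 did, against 51.1% of features, with a median of -0.08. Of 19 assembly factors 0 passed, with medians of 0.16 in WT and -0.15 in KO. Pet100 stood at 1.16 ± 0.38 and Cox18 at -0.71 ± 0.23 in WT. The subunits have a median of 670 bases of exon, against 3342 for all tested features, and the assembly factors 1383. With the length trend of each library removed, the medians were -0.05 in WT and 0.04 in KO for the subunits, and -0.05 and -0.06 for the assembly factors. Higd2a, the relative of Higd1a, was at 0.37 ± 0.29 in WT and 0.28 ± 0.29 in KO, and the supercomplex factor Cox7a2l at 0.41 ± 0.24 and -0.30 ± 0.24.

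Genes with tasks near that of Lonp1 were read in the same way. Of 10 mitochondrial proteases, Lonp1 included, 0 passed by limma in either genotype, with medians of 0.03 in WT and -0.13 in KO. The small shares over all features, 0.107% in WT and 0.0578% in KO, stand beside each count of calls in this paragraph. Yme1l1, a protease of the inner membrane, was at 0.66 ± 0.28 in WT and Afg3l2, another, at -0.35 ± 0.22. Mitochondrial chaperones (0 of 6, medians 0.08 and -0.11; Hspe1 0.34 ± 0.26 and Hspd1 -0.29 ± 0.29 in WT) and genes of mitochondrial DNA maintenance (0 of 6, medians 0.07 and -0.17; Ssbp1 0.50 ± 0.25 and Tfb2m 0.42 ± 0.36 in WT) had 0 calls. The adaptors that tie mitochondria to motor proteins, the setting in which Mgarp is known, had 0 of 4 called, with medians of -0.28 in WT and 0.04 in KO (Trak2 -0.58 ± 0.25 and 0.05 ± 0.25, Trak1 -0.28 ± 0.25 and -0.25 ± 0.25). With the length trend removed these medians were -0.12 and 0.00.

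**Figure D5:**
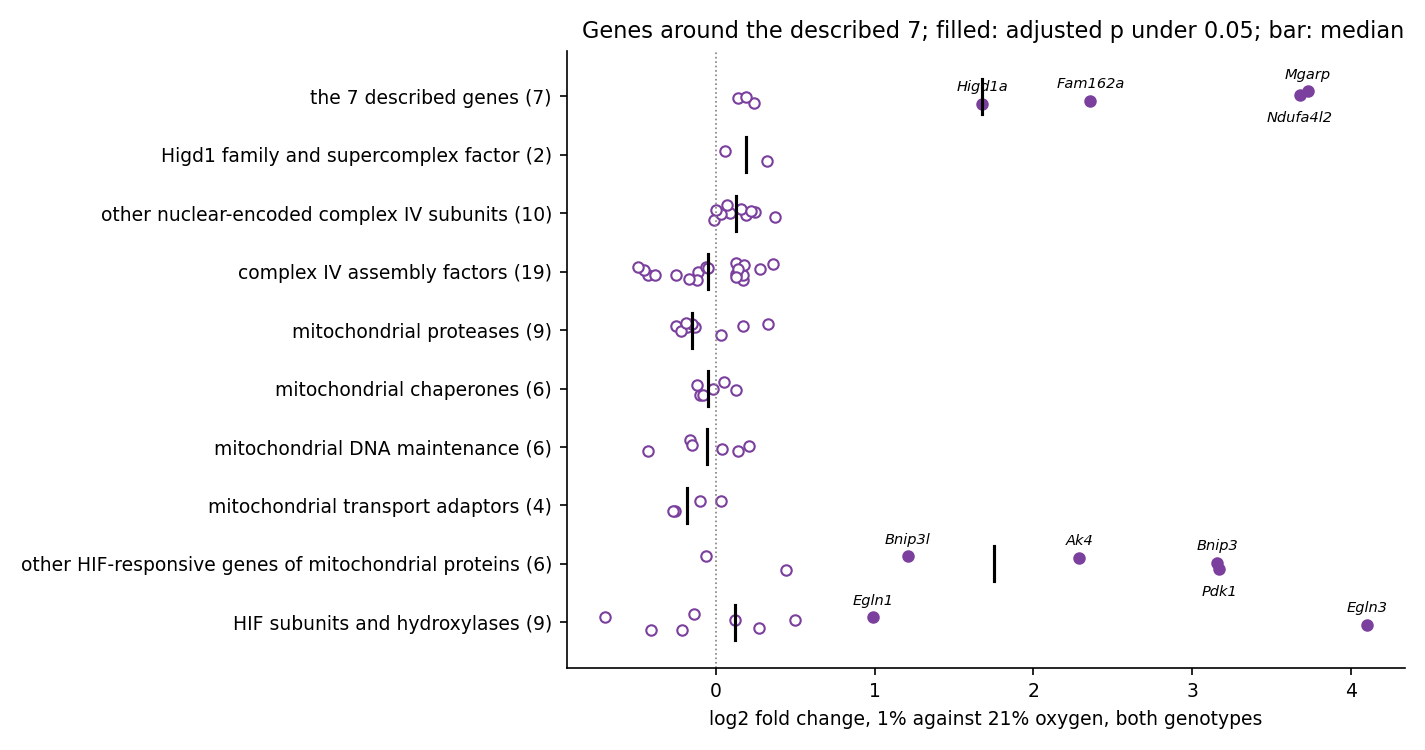
Log2 fold change with hypoxia over both genotypes for the 7 genes and for each tested gene of the lists around them (the number of genes in brackets, with the 7 themselves left out of the lists); filled points have a limma adjusted p under 0.05 and bars are medians. Filled points are found among the 7 genes, the other HIF-responsive genes and the HIF subunits and hydroxylases, and the remaining lists lie near 0.

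Genes whose level ran most like each member over the 8 libraries were named by Pearson's r of log2 values, as a description of these 8 points. For Higd1a they were Nampt (0.983), P4ha2 (0.982) and Bnip3l (0.980), and for Fam162a Nampt (0.978), Bnip3l (0.977) and Tnfrsf9 (0.975). Mgarp ran with Bnip3l (0.994), Ankrd37 (0.987) and Tnfrsf9 (0.979), and Ndufa4l2 with Macrod1 (0.984), Plod1 (0.977) and Nampt (0.975). Nampt appeared for 3 of these 4 genes and Bnip3l for 3. For Ndufa4 the closest were Cox6b1 (0.992), a subunit of the same complex, Tpt1 (0.988) and Rpl34 (0.986). Cox4i1 ran with Hist1h2ai (0.996), Eif3k (0.990) and Klhdc2 (0.985), and Lonp1 with Tnfrsf1b (0.955), Mthfd1l (0.943) and Hps4 (0.938). Hist1h2ai belongs to a family of near-identical genes, so its reads may be shared. Ndufa4, Cox4i1 and the genes named with them were all highest in WT hypoxia library 2 and KO normoxia library 1. Short transcripts were high in these libraries, and the part of this in the correlations was not tested.

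Ndufa4l2 is also known as a marker of pericytes, the mural cells of small vessels, and the cells' identity was therefore read from marker genes. All 8 fibroblast markers were present, with Col1a1 between 4983 and 8590, although Lum was at 1 to 36. Of 9 pericyte markers 5 (Rgs5, Kcnj8, Abcc9, Anpep and Des) were under 10 in every library, and Kcnj8, Abcc9 and Anpep were at the lowest value, 1, in all 8. The summed pericyte level, made up by Cspg4, Pdgfrb and Mcam, which fibroblasts can express, was 2651 to 2663 in WT normoxia and 1848 to 2527 in WT hypoxia. It was 2540 to 2703 in KO normoxia and 3107 to 3182 in KO hypoxia. Thus the sum was lower in hypoxia in WT and higher in hypoxia in KO, but its genes did not move together. In WT Pdgfrb was lower in hypoxia (654 and 882 to 548 and 583), while Cspg4 and Mcam overlapped between the oxygen levels. In KO Cspg4 (1102 and 1384 to 1724 and 1773) and Mcam (651 and 678 to 749 and 764) rose, while Pdgfrb fell (773 and 629 to 620 and 626). The part of the summed level in the Ndufa4l2 values was not tested. All 5 smooth muscle markers were present and summed to 67438 to 93673 in WT normoxia and 82982 to 84871 in WT hypoxia. In KO they summed to 48939 to 55262 in normoxia and 49133 to 58835 in hypoxia, below every WT library. Acta2 and Tagln made up most of these sums, while Smtn was higher in KO than in WT in hypoxia. Acta2, the smooth muscle actin that activated fibroblasts also make, stood at 30992 to 58594, while Myh11, the smooth muscle myosin, stood at 25 to 398. Of 5 endothelial markers 3 were under 10 throughout (sums of 13 to 45), as were 4 of 5 epithelial markers (13 to 55). Leukocyte markers summed to 8 to 31, and 2 markers of steroid-producing cells to 5 to 12.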

How the data were processed

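RNA was measured in 8 libraries. Extraction used a miRNeasy kit and library preparation an NEB small RNA set for SOLiD, per the labels' protocols. For every gene and library the authors deposited a score, called a normalised count by the table's name: whole numbers with a lowest value of 1. The sources used here give no aligner, build, strand setting or method of normalization, so overlapping genes may share reads. Depth was estimated from the spacing of low values. At a worth of 0.660 to 1.385 per read, a value of 10 rests on more reads in some libraries than in others.

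Tests ran on log2(value + 1), which understates the fold change of low genes. Features at 10 or more in at least 2 of 8 libraries were tested (12107, with 4984 left out, and all 7 members passing). The limma package (3.58.1, under R 4.3.3) fitted the 4 groups in 1 model with a trend of variance with level, and 6 comparisons were made. All adjusted p-values are two-sided, by Benjamini and Hochberg over the tested features, with a threshold of 0.05. Moderated tests had 10.2 degrees of freedom. An exact test of 2 libraries against 2 could not reach this threshold, so calls rest on the spread shared by the groups. On simulated data with 50 genes changed at each fold in WT hypoxia, the limma test called 29 of 50 at 2-fold, 50 of 50 at 4-fold and at 8-fold and 49 of 50 at 0.25-fold, and 13 of its 191 calls were unchanged genes (12039 genes tested). The simulation gave every gene the same relative spread beyond counting error and changed only genes with a mean value of at least 20. It held no length trend and no outlying library, so its rates may not hold for the measured libraries. There Higd1a was called in WT at 3.72-fold, while Fam162a was not called in KO at 3.54-fold. Exon lengths are unions of GENCODE basic exons. Genes were named as the 7 members, the 3 features with mean value of at least 20 most correlated with each, and for each list those past the test or the 2 with the largest WT change. The members and lists were chosen with earlier results of these data known. The planned ratio of Cox4i2 to Cox4i1 was not analysed here.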

Additional observations from a re-analysis of the deposited data

How the results depend on the processing

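The count of called genes among the 7 depended on the processing in the 3 comparisons of hypoxia with normoxia, and in the other 3 it was 0 under each alternative run. In WT hypoxia (3 called) it was 0 without the filter on low values or with only the libraries of the comparison, 1 with limma without trend or without WT hypoxia library 2 and KO normoxia library 1 together (an alternative added after seeing the data), 2 with median centring (Higd1a at limma adjusted p = 0.0501) or with values of at least 50 in 2 libraries, and 0 to 2 when 1 library was left out. In KO hypoxia (0 called) it changed only when KO normoxia library 2 was left out, where calls over all features rose as well. Over both genotypes (4 called) it was 0 without the filter, 2 with values of at least 50 in 2 libraries (a filter that removes Mgarp and Ndufa4l2), 3 with limma without trend (Ndufa4l2 at limma adjusted p = 0.0519), 2 without the named pair of libraries and 2 to 4 when 1 library was left out. Except for that filter, the cause was not tested. The direction of Higd1a, Fam162a, Mgarp and Ndufa4l2 in the 3 hypoxia comparisons was positive under each alternative run.

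The labels do not say what a replicate number marks. The differences of library 1 minus library 2 correlated across genes at 0.57 between the WT groups and at 0.23 between the KO groups. Between a WT and a KO group they correlated at -0.11 to 0.11. The numbers may thus mark something shared within a genotype, which was not tested. The main fit does not take them as pairs. The replicate block in limma used 1 term across both genotypes, so it cannot model differences particular to a genotype. With the replicate block 3 members were called in WT, 0 in KO, 4 over both genotypes and 0 in the others. The log2 ratio of Ndufa4l2 to Ndufa4 differed by 3.44 with the replicate block (exact permutation p = 0.125, the smallest it allows) and by 3.44 within genotype (exact permutation p = 0.0556). When 1 library was left out it was 3.17 to 3.69 (exact permutation p = 0.0286 each, again the smallest allowed). Since the oxygen levels did not overlap, leaving out a library could give no other p.

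Values that turned sign were none of them called. With 1 library left out, Lonp1 ranged from -0.27 to 0.41 in WT hypoxia (-0.15 without WT normoxia library 2), Ndufa4 from -0.53 to 0.12 and Cox4i1 from -0.89 to 0.11 in KO hypoxia, and Cox4i1 from -0.11 to 0.39 over both genotypes. Without the named pair Ndufa4 was 0.12 and Cox4i1 0.11 in KO hypoxia. For KO against WT in normoxia Fam162a was -0.03 with the length trend removed, -0.08 without WT normoxia library 2 and -0.08 without KO normoxia library 1 or the pair. There, leaving out 1 library, Ndufa4l2 ranged from -0.82 to 0.50, Lonp1 from -0.33 to 0.11, Cox4i1 from -0.10 to 0.91 (-0.10 without the pair) and Higd1a from -0.15 to 0.01. For KO against WT in hypoxia Ndufa4l2 ranged from -1.81 to 0.29 and Lonp1 from -0.22 to 0.46, with 0.29 and -0.22 without the pair. For the difference of responses Ndufa4l2 ranged from -1.65 to 0.45 (0.95 without the pair) and Lonp1 from -0.11 to 0.57 (-0.06 without the pair), and Higd1a was 0.07 without the pair.

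The planned TMM scaling is left out, since TMM assumes counts and the deposited values are not; median centring stands as the scaling alternative. Where 1 library is left out, the lone library is assumed to vary like the other groups. Depth limits Mgarp and Ndufa4l2, whose normoxia values rest on an estimated 2 to 6 reads per group.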
